A study of Mus musculus with 10 samples.

Results

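Tet2 loss alone was examined in male mouse embryonic stem (ES) cells of knockout line 16 (T2KO 16) against male wild-type lines 6 and 92 (WT 6 and WT 92). The T2KO line was read in the Cy5 channel of 2 two-colour Agilent arrays and the wild-type lines in the Cy3 channel of 3 others, 2 for WT 6 and 1 for WT 92. These are 5 of the 10 arrays and 3 of the 11 lines of the series, chosen by their labelled genotype and sex and not by any measured value. The other lines served as points of comparison. They were female WT 7 and WT 94, Tet1 knockout lines 99 and 65 (T1KO, both labelled male), and lines lacking both Tet1 and Tet2 (DKO), of which 51 and 61 were male and 60 and 59 female. All cells were grown on irradiated feeders with LIF, preplating on gelatin was used to separate the feeders ahead of RNA extraction, and the labels give a mixed C57/BL/6 background.

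T2KO 16 is a single line, so its 2 arrays are repeat measurements of 1 culture or RNA and carry no spread between Tet2 knockout lines. Every line without Tet2 was labelled with Cy5 and every line with Tet2 with Cy3, and the T2KO arrays lay on another slide than the male WT arrays. Tet2 loss, dye and slide therefore cannot be told apart in any value of T2KO 16 minus WT. The male DKO lines, also labelled with Cy5, and the Cy3 partner on the T2KO arrays, T1KO 65, are given beside the values where they bear on this. These comparisons share T2KO 16, and those with WT share the WT lines.

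As background, Tet1, Tet2 and Tet3 encode enzymes that oxidise 5-methylcytosine in DNA to 5-hydroxymethylcytosine and further products, a route to loss of methylation. Tet1 and Tet2 are both active in mouse ES cells, and Tet3 is known for its role in the zygote. ES cells can move between a naive state and a primed state close to the post-implantation epiblast, and a small share of cells pass through a state resembling the 2-cell embryo.

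Repeat arrays were close: the median absolute difference between arrays was 0.05 log2 units for T2KO 16 and 0.1 for WT 6, against 0.15 between WT 6 and WT 92, 0.22 between T2KO 16 and WT 6 and 0.23 between T2KO 16 and WT 92. Between 55.2% and 57.6% of gene spots were well above background in the WT channels, and 62.6% and 67.1% in the T2KO channels. The ES cell markers Pou5f1, Nanog, Sox2, Zfp42, Esrrb, Dppa5a, Tdgf1 and Utf1 were well above background on all 5 arrays, at levels of 12.73 or more on the log2 scale in T2KO 16. The fibroblast markers Col1a1, Col1a2, Col3a1, Thy1, Postn, Lum, Dcn and Acta2 were also well above background on all 5 arrays, at 7.73 to 13.68 in T2KO 16. At Y-linked genes T1KO 99 went against its label, fully only at Eif2s3y and in part at Ddx3y. Eif2s3y stood at 6.67 in T1KO 99, within the female lines at 6.11 to 6.78, against 9.18 and 9.31 in WT 6 and WT 92, 10.76 in T1KO 65 and 10.86 in T2KO 16. Ddx3y stood at 7.30 in T1KO 99, against 8.76 and 8.43 in the male WT lines. Ddx3y did not set T1KO 99 apart from every line labelled male, since DKO 51 stood at 7.18. At Eif2s3y DKO 51 stood at 8.74, above the female lines. The count of genes past limma's test and the number at an unadjusted p under 0.05 are given without T1KO 99 as well. So are the adjusted p-values of the genes that passed and the counts of genes well beyond all other lines that have Tet2. Other values that rest on T1KO 99 are given only with it. Among these are the standard errors, the remaining adjusted p-values, the counts within gene lists and the other comparisons with the range of lines.

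Tet2 itself was lower in T2KO 16 at both of its probes near the end of the transcript, while Tet1 and Tet3 stood near their wild-type levels. At Tet2 probe A_55_P2081303 (mm9, chr3:133126751-133126810, minus strand) the log2 level was 12.15 and 11.96 on the WT 6 arrays, 11.51 on the WT 92 array, and 9.78 and 9.70 on the T2KO arrays. Both T2KO arrays lay below all WT arrays. The difference was -2.04 with a standard error (SE) of 0.243, a 4.11-fold lower level, with an unadjusted limma p of 0.000186 and an adjusted p of 0.142 over all genes, so it did not pass the threshold of 0.05. Male DKO lines stood at 9.77 and 10.11 at this probe, close to T2KO 16. Probe A_55_P2051405 (chr3:133126905-133126964, same strand) gave 10.52 and 10.08 in WT 6 and WT 92 and 8.50 in T2KO 16.

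The third Tet2 probe, A_55_P2074075 (chr3:133176421-133176479), did not separate the genotypes: it read 7.72 and 7.5 in WT 6 and WT 92, 7.72 in T2KO 16, and 7.74 and 7.88 in the male DKO lines. Where the deletion lies relative to the 3 probes is not given in the sources used here. The Tet1 probes showed that T2KO 16 kept Tet1 RNA. At A_55_P2122997 the arrays read 13.06 and 13.19 for WT 6, 12.80 for WT 92, and 12.91 and 12.92 for T2KO 16, while T1KO 65 stood at 10.92 and the male DKO lines at 11.07 and 10.83. The other Tet1 probes stood at 11.59 each in T2KO 16, against 11.28 and 10.91 and against 11.59 and 11.31 in WT 6 and WT 92. Tet3 probe A_55_P2175260 stood at 8.42 in T2KO 16 and at 8.55 and 8.6 in the WT lines, a difference of -0.16 (SE 0.126, limma adjusted p = 0.538).

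**Figure D1:**
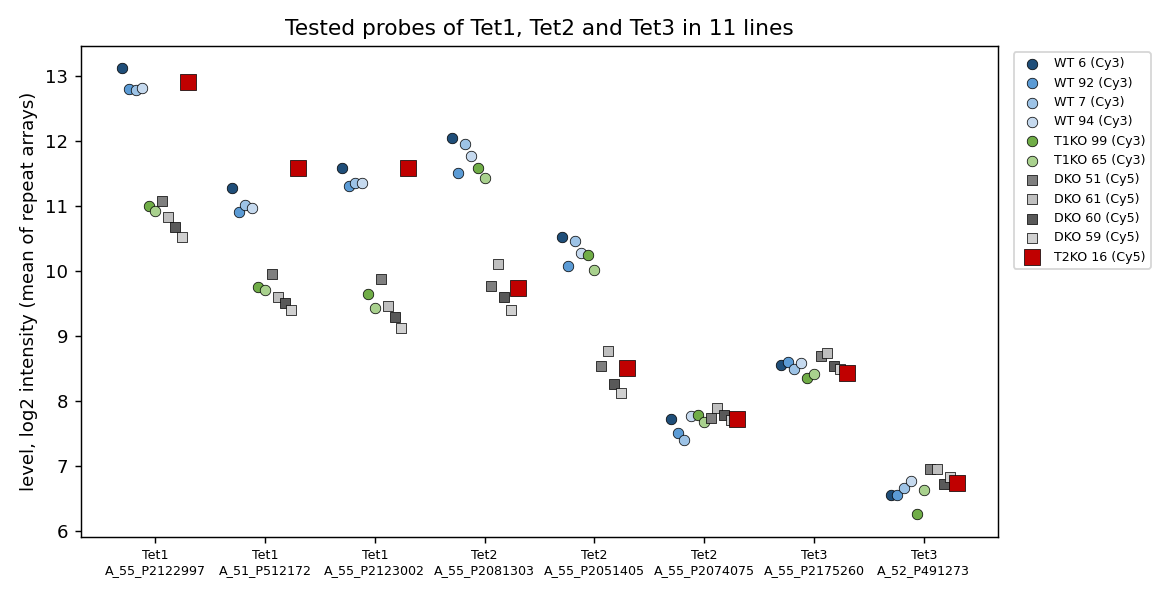
Log2 level of each tested probe of Tet1, Tet2 and Tet3 (y axis) in 11 lines, 1 point a line, circles for Cy3 and squares for Cy5, repeat arrays averaged. At the first Tet2 probe T2KO 16 is at 9.74 among the DKO lines and below WT 6 at 12.05 and WT 92 at 11.51, while at the Tet1 probes it lies with the WT lines.

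Across all genes, 2 of 20666 passed limma's test of T2KO 16 against the male WT lines at an adjusted p of 0.05, both lower (0.00968%), and none higher (0%). An unadjusted p under 0.05 was found for 3320 genes (16.1%). The spread in this test came from the lines read in Cy3, and the lone T2KO line was assumed to vary as they do. The genes were Miip, which encodes a protein known to inhibit cell migration and invasion, and Gas5, a non-coding RNA that hosts small nucleolar RNAs in its introns. Both calls were lost when either WT line was left out, at adjusted p 0.19 without WT 6 and 0.21 without WT 92. Without T1KO 99, whose Y-linked genes went against its label, neither passed (both at adjusted p 0.142), and 2626 genes had an unadjusted p under 0.05. The count depended on the processing: it was 0 with the background fitted on all spots (both at adjusted p 0.372) and 146 with the scanner software's processed signals.

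Miip fell by 2.66 on the log2 scale (SE 0.123, limma adjusted p = 0.0112), a 6.33-fold lower level. Its single tested probe (mm9, chr4:147236357-147236416) read 10.52 and 10.57 on the WT 6 arrays, 10.48 on the WT 92 array, and 7.84 and 7.86 on the T2KO arrays. T2KO 16 lay below every other line at this probe. The other lines read in Cy3 ranged from 9.76 to 10.55, and DKO 51, 61, 60 and 59 stood at 9.86, 9.54, 8.67 and 8.96. Against T1KO 65 on the same arrays the difference was -1.93, and against the male DKO lines in the same dye it was -1.85.

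Gas5 passed at 1 of its 3 tested probes, and the probes disagreed, so it falls outside the rule for named genes and is given here after its values were seen. Probe A_66_P134809 read 13.83 and 13.73 on the WT 6 arrays, 13.76 on the WT 92 array, and 10.18 and 10.27 on the T2KO arrays, a difference of -3.55 (SE 0.169, limma adjusted p = 0.0112). At A_51_P130544 the difference was -0.65 and at A_55_P2178378 it was 0.34. The low value at A_66_P134809 was also present in DKO 51, at 10.80, but not in DKO 61, at 13.35. The 3 probe sequences, as deposited, are shown because they lie at different positions of the gene. Whether they read the same transcript was not examined. Their mm9 positions on the plus strand of chromosome 1 are chr1:162966369-162966428, chr1:162967350-162967409 and chr1:162968608-162968667 in the order below.
A_51_P130544: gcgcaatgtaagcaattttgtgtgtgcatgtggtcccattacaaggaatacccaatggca
A_55_P2178378: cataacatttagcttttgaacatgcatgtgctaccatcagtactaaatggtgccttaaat
A_66_P134809: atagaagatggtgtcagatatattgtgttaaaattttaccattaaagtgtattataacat
With the mean of all tested probes in place of the brightest, Gas5 stood at -1.29 with an adjusted p of 0.143.

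Distance from both WT lines was then used as a description. T2KO 16 stood 1 log2 unit or more above both WT 6 and WT 92 for 198 genes (0.958% of 20664 with a value in both lines) and 1 or more below both for 105 genes (0.508%). Of the 198, 146 were among the 16653 genes well above background on all 5 arrays (0.877%), as were 100 of the 105 (0.6%), and for 41 of the 198 no WT array rose well above background. The counts moved with the processing: they were 91 and 37 with the background fitted on all spots, 885 and 490 with the scanner software's processed signals, 437 and 427 against WT 92 alone, and 340 and 220 against WT 6 alone.

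The other lines read in Cy3, female WT 7 and WT 94 and T1KO 99 and 65, narrowed these counts. T2KO 16 was within the range of the 6 lines that have Tet2 for 42 of the 198 genes and 27 of the 105. It was 1 or more above all 6 for 41 genes (0.198% of 20666) and 1 or more below all 6 for 18 (0.0871%), a rule set after the data were seen; without T1KO 99 these were 46 and 19. By the same measure, T2KO 16 was the highest of the 7 lines for 19.6% of all genes and the lowest for 16.1%. The 6 lines were all read in Cy3, so these counts do not hold the dye fixed. Many of the 41 genes were well above background on no WT array. Many also stood near their T2KO 16 level in the male DKO lines, such as Gm10729, at -0.14 from the male DKO mean.

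**Figure D2:**
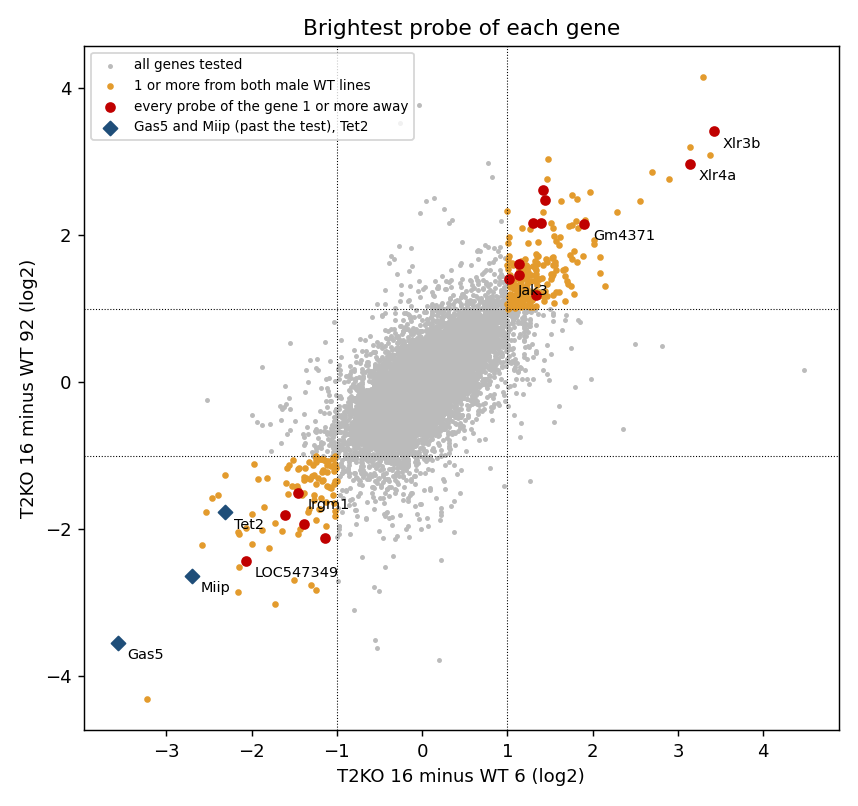
Log2 difference of T2KO 16 from WT 6 (x axis) and from WT 92 (y axis) for the brightest tested probe of each of 20666 genes. Dotted lines mark 1 log2 unit, orange points are 1 or more from both WT lines, red points are genes whose every tested probe is, and blue diamonds are Gas5, Miip and Tet2, of which Tet2 did not pass the test.

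Of the 59 genes beyond all 6 lines, 13 were also 1 or more above the male DKO mean and 12 were 1 or more below it. These 25 were picked out after their values were seen, partly on the T2KO 16 level itself, and their values are a description. Spic, an ETS-family transcription factor known from macrophages, stood at 10.58 in T2KO 16 against 7.44 and 7.38 in WT 6 and WT 92 and 8.6 and 7.82 in the male DKO lines. Nphs1, which encodes the podocyte protein nephrin and was well above background on 2 of the 3 WT arrays, stood at 10.61 against 7.32 and 6.46 in the WT lines, with DKO 51 at 9.21 and DKO 61 at 6.55. The ribosomal protein-like gene Rpl39l stood at 12.94 against 10.85 and 11.24 in the WT lines and 9.86 and 8.90 in the male DKO lines. T2KO 16 was thus the highest line at each of these 3 genes.

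Among the lower genes of this kind, Rbm45, an RNA-binding protein gene, stood at 7.89 in T2KO 16, against 10.04 and 9.96 in the WT lines and 10.95 and 10.61 in the male DKO lines at its brightest probe. Its other probe, A_55_P2010906, did not share this: it stood at 9.83 in T2KO 16 and 9.41 and 9.25 in the WT lines. Gja1, which encodes a connexin of gap junctions, stood at 8.13 against 10.12 and 10.33 in the WT lines and 9.22 and 9.76 in the male DKO lines. Gfer, a mitochondrial sulfhydryl oxidase gene, stood at 10.72 against 12.11 and 12.01 in the WT lines and 12.64 and 12.55 in the male DKO lines. Gm5801 stood at 9.83 against 11.99 and 11.87 in the WT lines (limma adjusted p = 0.0612). At the brightest probes of these 4 genes T2KO 16 was the lowest line. The remaining members of this set were Gm4371, Rbm44, 2410088K16Rik, Rhox13, Grrp1, Cnga3, Ly6k, Jak3, Tiam2 and ENSMUST00000127010 on the higher side and Phlda1, Nppb, Tmc7, LOC100503910, B230311B06Rik, Capn3, Miip and Gas5 on the lower side. The female DKO lines did not enter this rule, and both stood above T2KO 16 at Rhox13.

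Genes read by several probes gave a stricter description, because every tested probe of a gene had to meet the rule. Probes of different sequence can still overlap and are then not separate readings. The Abcc8 probes lie at chr7:53359908-53359967 and chr7:53359921-53359980, and probes of Gm9112 and Zscan4a overlap in part. Of 4303 genes with 2 or more tested probes of different sequence, 11 (0.256%) had every probe 1 or more above both WT lines and 5 (0.116%) had every probe 1 or more below both. None of the 16 passed limma's test, with adjusted p from 0.0945 for Gm4371 to 0.469 for LOC547349. These counts too moved with the processing, to 3 and 0 with the background fitted on all spots and to 32 and 19 with the processed signals. For 7 of the 16, 4 higher and 3 lower, T2KO 16 lay outside the range of the 6 lines that have Tet2.

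Among these 16, the widest differences by the mean over probes were at Xlr3b and Xlr4a, members of the X-linked lymphocyte-regulated gene family, whose copies lie close together on the X chromosome. Xlr3b probe A_55_P1965101 read 7.91 and 8.17 for WT 6, 8.05 for WT 92, and 11.49 and 11.42 for T2KO 16. Averaged over its 2 probes, Xlr3b stood 3.59 above the male WT mean in T2KO 16, a 12.1-fold difference (adjusted p = 0.231 with limma at the brightest probe). The male DKO lines stood 3.22 above WT on average, and the female lines WT 7 and WT 94 stood 1.82 and 4.33 above the male WT mean. Both T1KO lines lay below it, at -0.75 and -0.83. At the Xlr4a probes no WT array was well above background, so the T2KO level was at least 3.29-fold higher at A_55_P2124582 and at least 8.29-fold higher at A_55_P2124586, taking as the floor, on each WT array, the dimmest signal well above background or the probe's own where that was higher. Xlr4a stood 1.79 above male WT in the male DKO lines and 2.86 above it in WT 94. Probes in such families may bind several copies, so the copy measured is uncertain.

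Zscan4c, Zscan4a and LOC641136 stood highest in female WT 7. Zscan4 genes encode DNA-binding proteins expressed in the 2-cell embryo and in rare ES cells. Zscan4c stood 1.82 above the male WT mean in T2KO 16, between the male DKO lines at 1.24 and 0.64 and female WT 7 at 3.85. WT 6 and WT 92 themselves were 0.41 above and 0.41 below their mean. Zscan4a stood at 1.74 in T2KO 16 and 3.81 in WT 7, and LOC641136 at 1.68 and 3.51. Pramel39, of the PRAME-like family, stood at 1.31 in T2KO 16 and at 2.97 in WT 7 and 2.22 in WT 94. At these 4 genes T2KO 16 was above both male WT lines but below a female WT line.

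A second set stood above all 6 lines that have Tet2. Jak3, the kinase that signals from cytokine receptors with the common gamma chain, read 9.74 and 9.79 for WT 6, 9.38 for WT 92, and 10.79 and 10.78 for T2KO 16 at probe A_55_P2010912. The T2KO arrays were above all WT arrays, which the rule that named the gene nearly fixes. The difference was 1.21 (SE 0.219, limma adjusted p = 0.177). Over both probes T2KO 16 stood 1.27 above male WT and 1.61 above the male DKO mean, the DKO lines being 0.34 below WT on average (-0.34). Jak3 lies on chromosome 8, whose genes stood above WT as a whole by a smaller amount, given below. Gm4371 stood 1.85 above male WT and 1.5 above the male DKO mean, as a mean over its probes. By the same mean, female DKO 60 and DKO 59 stood 1.5 and 0.96 above male WT. At Gm4371 no WT array was well above background, and the bound was at least 2.47-fold at A_55_P1995587 and 3.86-fold at A_66_P138298. Gm9112 stood 2.10 above male WT, with DKO 51 at 1.90 and DKO 61 at 0.61. Abcc8, which encodes the sulfonylurea receptor of a potassium channel, stood 1.36 above male WT, with DKO 51 at 1.77 and DKO 61 at 0.30.

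Lonrf3, a RING finger protein gene on the X chromosome, stood 1.25 above male WT in T2KO 16, close to the male DKO lines at 0.96 and 0.85 and the female WT lines at 1.55 and 1.18.

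The 5 lower genes were LOC547349, Trim12a, Pdzk1, Mid1 and Irgm1. Irgm1, an interferon-induced GTPase, read 10.99 and 11.24 for WT 6, 11.17 for WT 92, and 9.62 and 9.71 for T2KO 16 at probe A_51_P262171. Over both probes it stood at -1.42 in T2KO 16, -0.79 and 0.16 in the male DKO lines and -1.31 in female WT 7. Trim12a, of the tripartite motif family, stood at -1.54 in T2KO 16 and -1.48 in WT 7, with DKO 51 at -1.26 and DKO 61 at 0.98. Both genes were therefore about as low in 1 wild-type line.

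LOC547349 stood at -1.85 in T2KO 16 and at -2.01 in T1KO 65, the line on the same arrays, while T1KO 99 stood at 1.07. Pdzk1, which encodes a PDZ-domain scaffold, stood at -1.48, below all 6 lines that have Tet2, of which WT 94 was lowest at -1.05. DKO 61 stood at -1.33 and DKO 51 at -0.37. Mid1, an X-linked ubiquitin ligase gene, stood at -1.43 in T2KO 16, -1.16 in T1KO 65 and -2.13 in WT 7, with DKO 51 at 0.03 and DKO 61 at -1.81. Only Pdzk1, Trim12a and Irgm1 of the 5 lay outside the range of those 6 lines, by -0.43, -0.06 and -0.11.

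**Figure D3:**
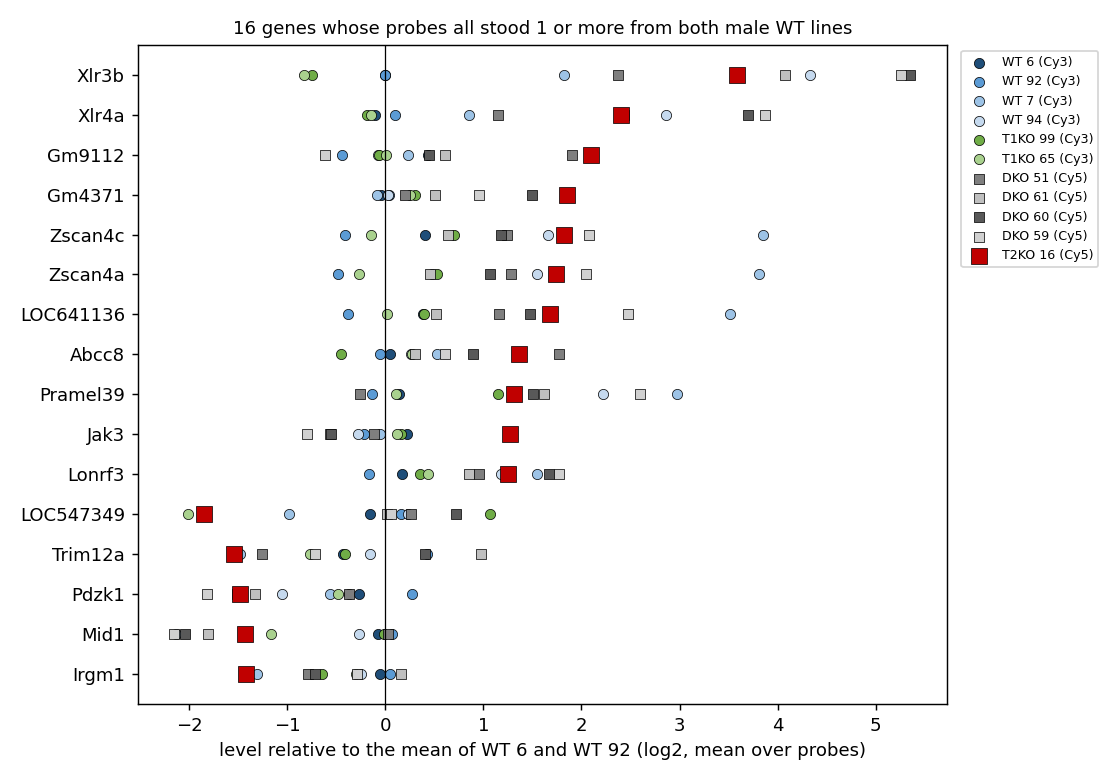
Level of 16 genes in 11 lines relative to the mean of WT 6 and WT 92 (x axis, log2, mean over the tested probes of each gene), circles for Cy3 and squares for Cy5. T2KO 16 (large red squares) stands apart from all circles at Gm9112, Gm4371, Abcc8 and Jak3, while at Xlr3b, Xlr4a and the Zscan4 genes a female WT line stands higher.

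Gene lists were read by the count of members past limma's test and by their median, beside a median of 0 over all genes. Over all genes, 0.958% stood 1 or more above both WT lines, 0.508% 1 or more below both, and 16.1% had an unadjusted p under 0.05. No member of any of the 22 lists passed. Members were chosen with earlier results of these data known, so their shares beside those over all genes are a description. The list of genes of the primed epiblast had the lowest median, at -1.08 over 14 genes (-0.93 against WT 6 and -0.99 against WT 92). Of its members, 12 were below the male WT mean, 5 were 1 or more below both WT lines (0.508% over all genes) and 5 had an unadjusted p under 0.05 (16.1% over all genes). Fgf5, a growth factor of the post-implantation epiblast, read 9.51 and 9.29 for WT 6, 9.20 for WT 92, and 7.39 and 7.43 for T2KO 16 (-1.89, SE 0.72, limma adjusted p = 0.294). T2KO 16 was below both male WT lines, but female WT 7 stood as low, at 7.40. Fgf8 stood at -2.03 (adjusted p = 0.314), with WT 7 at 7.66 and T2KO 16 at 7.54. Pou3f1, a transcription factor of the epiblast and neural tissue, stood at 10.02 against 11.84 and 11.31 in WT 6 and WT 92. Krt18, a simple-epithelium keratin, differed between the WT lines themselves, at 14.42 in WT 6 and 16.62 in WT 92, with T2KO 16 at 13.85. The list's median in WT 7 relative to male WT was -0.86 and in WT 94 -0.06, and T2KO 16 was beyond all 6 lines by 1 or more for none of its members. T2KO 16 stood -0.59 from the male DKO mean in the list's median and -0.98 from T1KO 65.

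Pluripotency genes had a median of 0.21 over 30 genes (0.06 against WT 6, 0.34 against WT 92), with 22 above the male WT mean, 6 with an unadjusted p under 0.05 and none 1 or more from both lines. Dppa5a, an RNA-binding protein gene of ES cells, read 16.45 and 16.50 for WT 6, 17.41 for WT 92, and 18.02 and 18.22 for T2KO 16 (1.17, SE 0.38, limma adjusted p = 0.253). The T2KO arrays were above all WT arrays, and DKO 51 stood at 18.10. The nuclear receptor gene Nr5a2 stood at 1.13 (adjusted p = 0.393) and Prdm14, a regulator of the naive state and of germ cell fate, at 1.1 (adjusted p = 0.189). Nr5a2 and Prdm14 both lie on chromosome 1, whose genes stood above WT as a whole. Pou5f1, Nanog and Sox2, the core factors, differed from male WT by 0.20, 0.23 and 0.11. The other way, 8 members stood below the male WT mean, down to -0.65, among them Tdgf1 at -0.33 and Utf1 at -0.41.

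Genes of the interferon response had a median of -0.54 over 29 genes, -0.33 against WT 6 and -0.84 against WT 92. Of these 23 were below the male WT mean, 4 were 1 or more below both lines (0.508% over all genes) and 7 had an unadjusted p under 0.05, a share not far from the 16.1% over all genes. Psmb8, an interferon-inducible subunit of the immunoproteasome, read 10.90 and 11.11 for WT 6, 12.28 for WT 92, and 9.29 and 9.25 for T2KO 16 (-2.37, SE 0.898, limma adjusted p = 0.292). The T2KO arrays were below all male WT arrays, while WT 7 stood at 9.15. Psmb9, its neighbour and fellow subunit, stood at -1.46 (adjusted p = 0.273), with WT 7 at 9.36 and T2KO 16 at 9.53. Gbp2, an interferon-induced GTPase, stood at 10.46 in T2KO 16 against 11.45 and 13.17 in the WT lines (adjusted p = 0.36) and 11.51 in WT 7. Ddx58, which encodes the RNA sensor RIG-I, and Ifi35 stood at -1.1 and -1.12. Irf9, which helps carry the interferon signal to the nucleus, stood at 0.08. In total 6 of the 29 members stood above the male WT mean, up to 0.73.

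The core of an interferon-stimulated response element, GAAA, any 2 bases and GAAA again, was searched on both strands of promoters running from 250 bases before to 50 after each start (RefSeq, GRCm38.p6). It was in 3.44% of all 32851 promoters, in 11 of the 25 interferon genes with a promoter in the table (44%) and in 9 of 63 such genes among those 1 or more below both WT lines (14.3%). Among genes 1 or more above both lines it was 3 of 113 (2.65%), and over all tested genes with a promoter 3.59%. The promoters of Gbp2 (chr3:142620413-142620712, plus strand) and Irgm1 (chr11:48871371-48871670, minus strand) are shown as examples with the matched letters in capitals, 1 match in Gbp2 and 2 overlapping matches in Irgm1. Those of Psmb8, Psmb9 and Ifi35 held no match in this window. Gbp2 is an interferon gene of the list but, at -0.99 from WT 6, was not among the 63.
Gbp2: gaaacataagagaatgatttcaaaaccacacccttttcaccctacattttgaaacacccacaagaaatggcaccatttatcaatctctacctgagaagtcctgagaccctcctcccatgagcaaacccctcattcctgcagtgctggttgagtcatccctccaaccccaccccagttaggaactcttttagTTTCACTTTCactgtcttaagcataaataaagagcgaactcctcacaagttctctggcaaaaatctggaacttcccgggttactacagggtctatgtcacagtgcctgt
Irgm1: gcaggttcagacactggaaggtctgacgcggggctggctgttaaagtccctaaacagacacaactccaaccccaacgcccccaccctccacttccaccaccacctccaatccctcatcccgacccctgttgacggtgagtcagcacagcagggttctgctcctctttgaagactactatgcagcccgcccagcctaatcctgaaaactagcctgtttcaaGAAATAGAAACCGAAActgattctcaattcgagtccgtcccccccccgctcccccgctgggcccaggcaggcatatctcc

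Germline genes had a median of 0.48 over 39 genes (0.33 against WT 6, 0.64 against WT 92). Of these 30 were above the male WT mean, 8 were 1 or more above both lines (0.958% over all genes), and 17 had an unadjusted p under 0.05, where the share over all genes was 16.1%. Of the 8, 3 were Xlr genes. Because the members were chosen with earlier results of these data known, these shares are no test of the list. Dazl, an RNA-binding protein gene required for germ cell development, read 7.96 and 8.18 for WT 6, 7.73 for WT 92, and 9.30 and 9.17 for T2KO 16 (1.33, SE 0.233, limma adjusted p = 0.177). The T2KO arrays were above all WT arrays, and the male DKO lines stood at 9.61 and 8.70, 0.07 below T2KO 16 on average. The X-linked homeobox gene Rhox13 stood at 10.67 against 8.85 and 8.17 in the WT lines (2.16, SE 0.305, adjusted p = 0.152) and 1.37 above the male DKO mean. Female DKO 60 and DKO 59 stood higher at Rhox13, at 10.74 and 10.91. Rpl10l, a testis-expressed ribosomal protein gene, stood at 1.34 (limma adjusted p = 0.229), with the male DKO lines near WT, at -0.07. Tex101, a germ cell surface protein gene, stood at 1.24 (limma adjusted p = 0.177). At Rpl10l female DKO 60 and DKO 59 stood at 13.32 and 13.03, beside T2KO 16 at 13.12. Of 39 members T2KO 16 was the highest of the 7 lines for 17, against 19.6% of all genes, and beyond all 6 others by 1 or more for 1, Rhox13.

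Genes of the 2-cell-like state had a median of 0.47 over 16 genes, with 14 above the male WT mean, 4 of them 1 or more above both WT lines (0.958% over all genes) and 2 with an unadjusted p under 0.05, below the 16.1% over all genes. Only 6 of the 16 were well above background on all 5 arrays, and of the 4, Usp17lb was so on no WT array. Over the alternatives run, the median of the list ranged from 0.14 to 1.14. Zscan4f stood at 12.02 in T2KO 16 against 10.26 and 9.47 in WT 6 and WT 92 (2.16, SE 0.918, limma adjusted p = 0.326). Female WT lines stood higher, WT 7 at 14.37 and WT 94 at 12.28. Gm4340 stood at 1.63 (adjusted p = 0.377) and Zscan4c at 2.02 (adjusted p = 0.374). Dux, the transcription factor that drives this state, stood at -0.19 and was well above background on 1 of the 3 WT arrays. The median of the list was 1.29 in WT 7 and 0.87 in WT 94 relative to male WT, so both female WT lines lay above T2KO 16.

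Because Tet enzymes act at CpG dinucleotides, the number of CpGs in the promoters was counted, taking the richest where a gene had several. The median was 20 over the 12354 tested genes with a promoter in the table, 12 for those 1 or more above both WT lines and 15 for those 1 or more below. Germline genes had a median of 18.5 and genes of the 2-cell-like state 2, with 9 of 10 under 5 CpGs. Dazl (chr17:50293571-50293870, minus strand), with 28 CpGs, and Zscan4c (chr7:11005495-11005794, plus strand), with 4, show both kinds among genes that stood higher in T2KO 16, with CpGs in capitals. DNA methylation was not measured on these arrays.
Dazl: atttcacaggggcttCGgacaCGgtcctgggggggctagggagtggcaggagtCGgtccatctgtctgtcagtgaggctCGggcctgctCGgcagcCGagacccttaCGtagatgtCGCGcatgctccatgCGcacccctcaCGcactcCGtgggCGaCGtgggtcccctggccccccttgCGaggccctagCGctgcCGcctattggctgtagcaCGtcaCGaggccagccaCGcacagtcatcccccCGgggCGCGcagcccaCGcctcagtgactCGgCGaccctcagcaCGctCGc
Zscan4c: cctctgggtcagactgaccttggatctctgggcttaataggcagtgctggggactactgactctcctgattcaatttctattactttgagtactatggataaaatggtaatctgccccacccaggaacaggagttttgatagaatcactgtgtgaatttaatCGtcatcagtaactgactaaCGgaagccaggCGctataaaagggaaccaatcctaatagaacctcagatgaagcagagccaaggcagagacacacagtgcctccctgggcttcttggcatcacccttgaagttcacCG

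Feeder fibroblast markers had a median of -0.44 over 37 genes, -0.11 against WT 6 and -0.72 against WT 92, with 33 below the male WT mean, 3 with an unadjusted p under 0.05 and none 1 or more from both lines. The summed linear level of the list was 340000 in T2KO 16, 345000 in WT 6 and 547000 in WT 92, and 332000 and 393000 in the male DKO lines. Over the other lines read in Cy3 it ranged from 326000 in WT 7 to 449000 in WT 94. In bulk RNA, fewer cells of a type and less RNA per cell cannot be told apart. The list moved with the interferon genes and with Krt18 and Krt8 in that WT 92 stood highest of the 3 lines in each, and its part in those values was not tested. S100a6 stood at -1.15 (limma adjusted p = 0.195), Tagln at -1.29 (adjusted p = 0.425) and Lgals1 at -0.93 (adjusted p = 0.255).

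**Figure D4:**
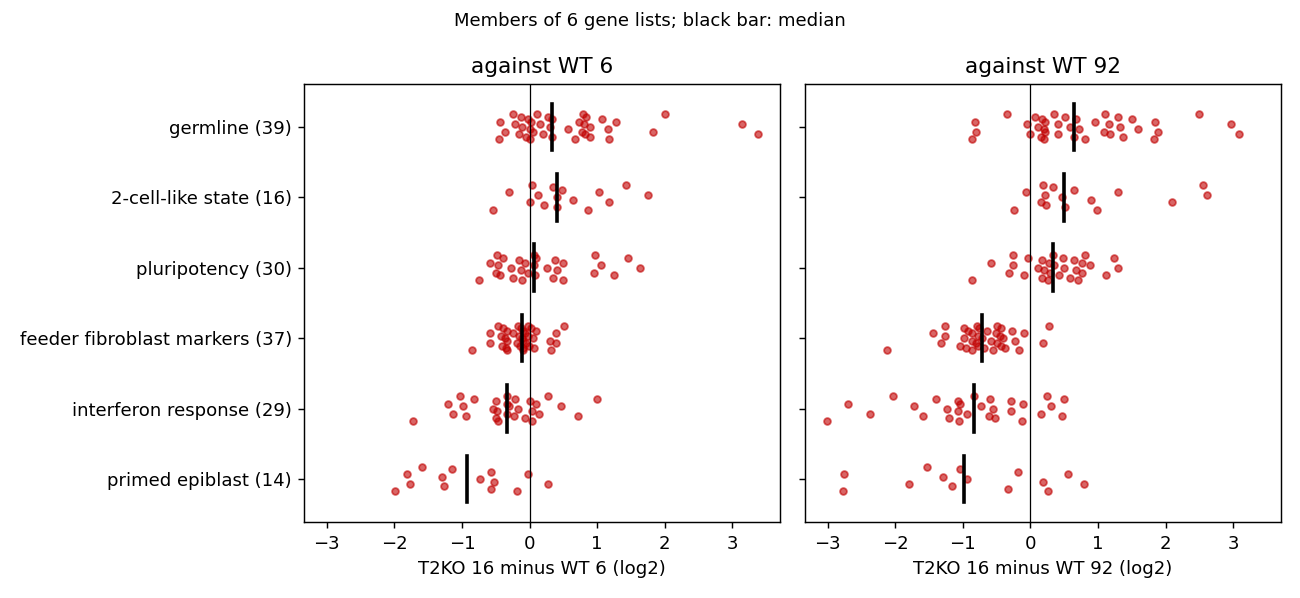
Log2 difference of T2KO 16 from WT 6 (left) and WT 92 (right) for the members of 6 gene lists, 1 point a gene, with the number tested after each name and a black bar at the median. The primed epiblast medians are -0.93 and -0.99, the germline medians 0.33 and 0.64, and the feeder medians -0.11 and -0.72.

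Among genes of the DNA methylation machinery (24 genes, median -0.09), Tet2 and Dnmt3b, the de novo methyltransferase of the epiblast, were farthest from 0. Dnmt3b read 15.92 and 15.97 for WT 6, 15.12 for WT 92, and 14.17 on both T2KO arrays (-1.36, SE 0.466, limma adjusted p = 0.267). The T2KO arrays were below all male WT arrays, and WT 7 stood at 14.15. Gadd45a stood at -0.89 (adjusted p = 0.33), and Dnmt3a, Uhrf1 and Dnmt1, for de novo and maintenance methylation, at -0.57, -0.40 and -0.30. In this list 5 genes had an unadjusted p under 0.05, near the 16.1% over all genes.

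In the lists of lineage genes, the medians were -0.05 for trophectoderm (23 genes, 1 with an unadjusted p under 0.05), -0.21 for primitive endoderm (20, none), -0.12 for mesoderm and primitive streak (14, 3), -0.05 for neuroectoderm (19, 4) and 0.20 for blood and endothelium (12, 2). The keratin gene Krt8 stood at 12.21 in T2KO 16, 12.76 in WT 6 and 15.71 in WT 92 (adjusted p = 0.431), so the WT lines were farther from each other than T2KO 16 was from WT 6. The homeobox gene Rhox6 stood at -1.56 (adjusted p = 0.335), Snai1 at -0.63 (adjusted p = 0.2), Neurod1 at 1.07 (adjusted p = 0.204) and Sox3 at -0.91 (adjusted p = 0.404). The endoderm genes Foxa2 and Col4a1 stood at -0.74 and -0.60, and the haematopoietic genes Kit, Cd34 and Gata1 at 0.63, 0.62 and 0.41.

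Nodal and Lefty signalling had a median of 0 over 15 genes, 4 of them with an unadjusted p under 0.05. Lefty1, an inhibitor and target of Nodal, read 14.99 and 15.04 for WT 6, 14.99 for WT 92, and 13.73 and 13.71 for T2KO 16 (-1.28, SE 0.253, limma adjusted p = 0.186). T2KO 16 lay below both WT lines and below all 6 lines that have Tet2, whose lowest was 13.91. The receptor gene Acvr1b stood at 0.75, while the ligand Nodal stood at 0.08.

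In the remaining lists no member passed the test either. The medians were 0.17 for Hox genes (18 genes, 3 with an unadjusted p under 0.05), 0.16 for Polycomb and trithorax (33, 6), 0.06 for imprinted genes (47, 7), 0.12 for heat shock (13, 2), 0.08 for unfolded protein and amino acid stress (19, 1), 0.13 for glycolysis and hypoxia (31, 7), 0.20 for p53 targets (22, 3), -0.05 for the cell cycle (33, 6) and 0.57 for sex-linked genes (4, 1). Hoxb13 stood at 1.72 (adjusted p = 0.346), the p53 target Gdf15 at 1.51 (adjusted p = 0.304), the glycolytic gene Eno2 at 1.37 (adjusted p = 0.304) and the imprinted gene Peg12 at 1.06 (adjusted p = 0.272). Female WT 7 stood above T2KO 16 at Hoxb13, at 9.79 against 9.53, and at Gdf15, at 11.57 against 10.65. The hypoxia-responsive gene Ankrd37 stood at 0.98 from male WT and 3.55 above the male DKO mean. Ankrd37 and Gdf15 both lie on chromosome 8, whose genes stood above WT as a whole. The replication clamp gene Pcna stood at -0.69 (adjusted p = 0.182), Vldlr at -0.85 (adjusted p = 0.177) and the Polycomb gene Rnf2, on chromosome 1, at 0.59 (adjusted p = 0.197).

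Genes of chromosomes 1 and 8 stood above WT as a whole in T2KO 16. Over 1139 genes of chromosome 1 the median was 0.21 against WT 6 and 0.21 against WT 92, and over 1070 genes of chromosome 8 it was 0.17 and 0.19. In linear terms the medians were 1.16-fold and 1.13-fold. Of the genes of chromosome 1, 70.7% were above the male WT mean, and of chromosome 8 71.6%, against 44% to 54.2% on each of the other 18 chromosomes. Medians of those 18 ranged from -0.05 to 0.03 against WT 6 and from -0.05 to 0.02 against WT 92. Within the arrays, against T1KO 65, the medians were 0.18 for chromosome 1 and 0.16 for chromosome 8, and from -0.03 to 0.04 elsewhere.

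The shift ran along both chromosomes. In windows of 20 Mb the median was between 0.10 and 0.35 in all 10 windows of chromosome 1 and between 0.12 and 0.25 in all 7 of chromosome 8. Other lines showed shifts of like size: DKO 51 stood 0.25 above male WT on chromosome 1, WT 7 stood 0.19 above it on chromosome 8, and DKO 61 stood at 0.09 on chromosome 8, -0.15 on chromosome 12 and 0.20 on X, where female WT 94 stood at 0.17. T1KO 65 stood at 0.01 and 0.02 on chromosomes 1 and 8. Chromosomes 1 and 8 held 45 of the 198 genes 1 or more above both WT lines (22.7%) and 11 of the 105 below (10.5%), where they hold 10.7% of all genes tested. The number of chromosome copies was not measured.

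**Figure D5:**
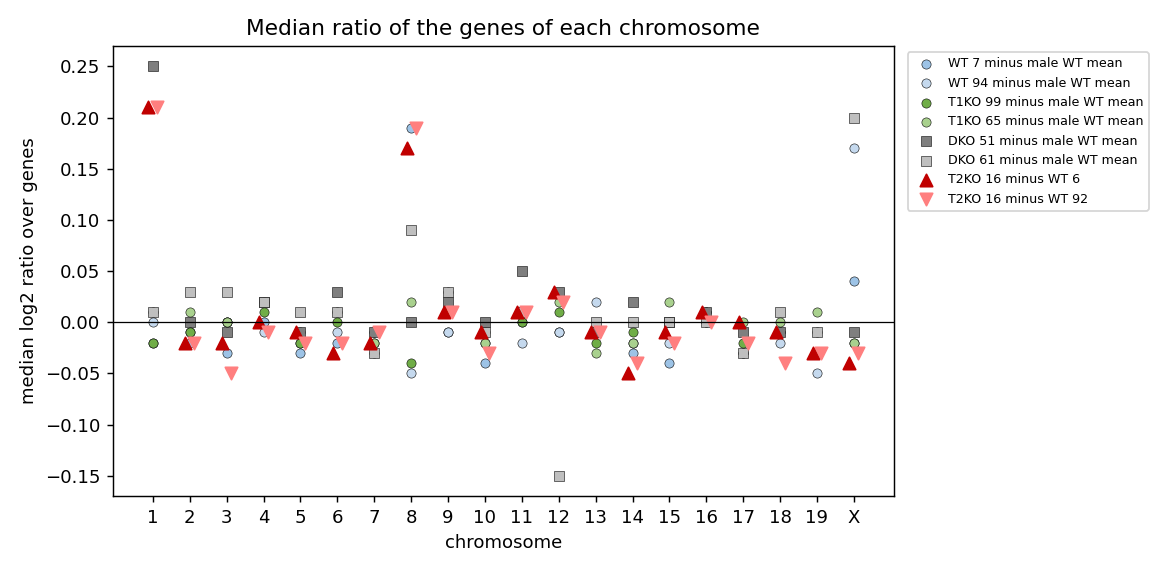
Median log2 ratio (y axis) over the genes of each chromosome (x axis) for T2KO 16 against WT 6 and WT 92 (triangles) and for 6 other lines against the mean of WT 6 and WT 92. T2KO 16 stands at 0.17 to 0.21 on chromosomes 1 and 8 and within 0.05 of 0 elsewhere.

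Genes within 5 Mb of Tet2 on chromosome 3 did not share its difference. Of 58 such genes besides Tet2, none passed limma's test and none was 1 or more from both WT lines. Their differences ranged from -0.71 for the zinc and manganese transporter gene Slc39a8 to 0.85 for Gm2095, with a median of 0.04.

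The comparison of T2KO 16 with the male DKO lines, in which both sides were read in Cy5 and Tet1 differs, gave 1 gene of 20666 past limma's test, higher (0.00484%), and none lower (0%), with 2638 at an unadjusted p under 0.05 (12.8%). That gene, Gm10499 on chromosome 17, stood at 12.03 in T2KO 16 and 7.86 and 7.83 in the male DKO lines (4.19, adjusted p = 0.0187). WT 6, WT 92 and T1KO 65 stood at 11.53, 11.32 and 11.03, and WT 7, WT 94 and T1KO 99 at 6.21, 6.45 and 7.85. The gene thus separated lines of the same genotype from each other, and it is named here after its values were seen.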

How the data were processed

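Per the file headers, the deposited intensity of a spot is its mean signal beside the median of the surrounding background, in each channel, as Agilent Feature Extraction 10.1.1.1 read it, with no normalization. The software's processed intensities served as an alternative. Per the labels, both cRNAs were labelled from 200 ng of total RNA. Levels here are log2 of the normalized intensity, computed from the deposited values. From these, background was corrected by normexp (offset 50, fitted without spots below their local background, 71 to 122 an array, which were left out), dyes were normalized by loess within arrays and mean intensities by Aquantile between all 10 arrays, in R 4.3.3 with limma 3.58.1. Spots flagged as outliers (173 to 337 an array) were left out and probes averaged. Of 39429 probes, 26581 were named through RefSeq accessions, the rest by the file's name. Tested probes (25869) exceeded background clearly in every array of 1 or more genotype groups, WT and DKO split by sex; each of 20666 genes is given by its brightest tested probe, in mm9 coordinates of the array design. Where a value in WT 92 was missing (2 genes), WT 6 stood alone.

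Repeat arrays of a line were averaged. T2KO 16 was fitted against male WT with limma, female WT and T1KO lines giving spread only, Benjamini-Hochberg adjusted over all genes. The p-values measure the spread between these lines. The members, lists and tests were chosen with earlier results of these data known. Genes were named by rule: all Tet probes; up to 12 genes a direction with 2 or more tested probes, all 1 log2 unit or more from both WT lines; up to 6 single-probe genes a direction past the test; up to 3 members of each list farthest from 0 and well above background on all 5 arrays; and genes within 5 Mb of Tet2 that met either threshold. Other genes are named as list members or after their values were seen. Where a gene was named for its distance from WT, its arrays standing apart follows largely from that choice. Alternatives covered background, normalization, probe filter, probe averaging, the source of spread and leaving out arrays or lines. The fit was tested on simulated data. The number of arrays limits precision. Some items are not reported here.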

Additional observations from a re-analysis of the deposited data

How the results depend on the processing

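No paired analysis was possible because the replicate numbers mark repeat arrays of the same lines and pair no samples across genotypes. The count of genes past limma's test of T2KO 16 against male WT, 2 as reported, was 0 with normexp fitted on all spots, 146 with the scanner software's processed signals, 0 with the 5 arrays normalized alone, 1 with the mean of all tested probes, 5 with spread from male Cy3 lines only, 5 with a trended variance prior and 721 with every array kept and line as a random block, which treats repeat arrays of a line as samples. Leaving out 1 line or array gave 0 to 2. Leaving out T1KO 99, chosen after seeing the data because its Y-linked genes went against its label, gave 0 in the reported fit and 0 with male Cy3 spread (Miip and Gas5 at adjusted p 0.142 and 0.213), so the 5 calls with male Cy3 spread rest on that line too. Leaving out a line also takes away part of the spread, so the loss cannot be tied to what that line is. The cause was not tested. Genes 1 or more above both WT lines, 198 as reported, numbered 91 with normexp on all spots, 885 with processed signals, and 188 to 437 leaving out a line or array; those below, 105, numbered 37, 490, 187 at the 75th percentile without loess, and 98 to 427. Beyond all 6 other lines read in Cy3, an alternative chosen after seeing the data, they were 41 and 18, and 46 and 19 without T1KO 99. Genes whose probes agree, 11 higher and 5 lower, were 3 and 0 with normexp on all spots, 32 and 19 with processed signals, and 9 to 30 and 5 to 26 leaving out a line or array; the lower ones were 12 at the 75th percentile, which moved the median of all genes to -0.11. Against male DKO, 1 gene became 3 with processed signals and 0 with the 5 arrays alone.

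The median of chromosome 1 minus that of all genes, 0.20, was 0.15 with normexp on all spots, 0.30 with processed signals, 0.23 at the 75th percentile, 0.10 without the filter on dim probes and 0.26 with probes well above background on all 5 arrays. For chromosome 8, 0.18, these were 0.14, 0.23, 0.23, 0.10 and 0.21. Leaving out a line or array gave 0.20 to 0.21 and 0.16 to 0.19. Both kept their sign in all 20 alternatives run. With line as a random block, members past the test numbered 12 for germline, 4 for primed epiblast, 3 for interferon, 2 each for Hox, Polycomb, Tet and DNA methylation, cell cycle, glycolysis, neuroectoderm and pluripotency, and 1 each for Nodal and Lefty, feeder markers, imprinted, mesoderm and unfolded protein stress, where none passed as reported and 3.49% of all genes passed in that fit. With processed signals 1 passed in each of Hox, interferon and neuroectoderm, and with male Cy3 spread 1 of germline.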
